A study of Homo sapiens with 6 samples.

Results

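The 2 stable knockdown lines shlinc00598#2 and shlinc00598#3 were compared with each other, to find which genes differ between cells that carry different short hairpin RNAs against the same long noncoding RNA. The members are the 4 arrays of these lines, of 6 arrays in all, chosen by their titles and paired by replicate number. Total RNA was read on Illumina HumanHT-12 v4 BeadChips from HEK293T cells, a human embryonic kidney line that carries the large T antigen of the virus SV40, after lentiviral delivery of a first hairpin against linc00598 (shlinc00598#2, 2 arrays), another hairpin against linc00598 (shlinc00598#3, 2 arrays) or a control hairpin (shCTL, 2 arrays). All 6 arrays share the parent cells and the presence of a hairpin, and no untreated cells were measured. The shCTL arrays took no part in the test or in calling genes and are given beside the values. They were normalized together with the other arrays, and the study used them to choose several of the genes it names. Each hairpin was carried by 1 stable line, so the hairpin and the line cannot be told apart. The labels do not say whether the lines are clones or pools, or whether the replicates are separate cultures, so p-values measure only the spread between these arrays, which may be technical.

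A short hairpin RNA is cut by Dicer into a small interfering RNA, and the guide strand directs Argonaute to matching transcripts. A guide can also pair through its seed with unrelated transcripts, and a stable line is derived from the cells that the virus entered, which is why a second hairpin against the same target is commonly used as a control. linc00598 lies between FOXO1 and COG6 on chromosome 13. Of the 47321 probes, 0 are named LINC00598, and how far either hairpin lowered its target could not be read from these arrays.

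Between 20864 and 21818 probes were detected on each knockdown array, at a median intensity between 105.4 and 126.2. Of the 47321 probes, 20542 had a detection p-value under 0.05 on both arrays of at least 1 knockdown line, and they gave 16635 genes and unnamed probes (11912 named genes and 4723 probes with no single gene name). Of the 11 markers of HEK293 cells on the array, 9 were detected, among them VIM, KRT18 and NEFM, whereas the kidney regulators PAX2 and LHX1 were not. Markers of other cell types were mostly undetected, with 2 of 7 epithelial, 3 of 10 fibroblast and 3 of 10 blood cell markers on the array above the detection limit, and 0 of these 4 marker lists held a called gene. The summed linear level of the detected fibroblast markers was 881.9 to 2900 in shlinc00598#2 and 906 to 3407 in shlinc00598#3, and that of the blood cell markers 712.6 to 764.6 in shlinc00598#2 and 772.4 to 805 in shlinc00598#3. The HEK293 markers summed to between 13090 and 15770 in shlinc00598#2 and between 12530 and 15840 in shlinc00598#3, and the epithelial markers to between 599.9 and 799.9 in shlinc00598#2 and between 532.7 and 727.5 in shlinc00598#3.

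The deposited processed table and the sample descriptions disagree. Of the 6 processed columns, 4 (3 of them of knockdown samples) hold the values of an array that the descriptions give to another sample, with a rank correlation of 1 with that array, whereas the array they should hold gave 0.925 to 0.941. The non-normalized intensities, whose columns are named in the descriptions, gave all values below. Read by their own column labels, the processed values gave 0 calls between the lines and turned the direction of 150 of the 181 genes reported below. With each column set beside the array it holds, they gave 182 calls. One array also stood apart. At least 0.7 lower on the log2 scale in shlinc00598#2 were 145 genes and unnamed probes in replicate 2 and 17 in replicate 1, and 132 of those 145 had their highest value of all 6 arrays on shlinc00598#3 replicate 2, where 18.9% of all genes and unnamed probes had theirs. The median difference of the 145 in replicate 1 was 0.02. They were chosen for a high value on that array beside shlinc00598#2 replicate 2, which by itself favours the count of 132. At least 0.7 higher in shlinc00598#2 were 31 in replicate 2 and 37 in replicate 1.

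The lines differed less from each other than either differed between its replicates. The median absolute log2 difference between shlinc00598#2 and shlinc00598#3 was 0.12 in replicate 1 and 0.12 in replicate 2, whereas the replicates of a line were 0.22 (shlinc00598#2) and 0.23 (shlinc00598#3) apart by the same measure. Across all genes and unnamed probes, which are not independent, the line difference in replicate 1 and that in replicate 2 had a Pearson r of 0.290 and a Spearman rho of 0.270, and all 6 arrays share a BeadChip by the sample descriptions. The replicate shift was common to the lines (correlation across genes of 0.829), so the fit kept the replicate number as a block. In that limma fit, 181 of 16635 genes and unnamed probes (1.09%) passed an adjusted p of 0.05, 117 higher (0.703%) and 64 lower (0.385%) in shlinc00598#2 than in shlinc00598#3. All 181 had the same direction in both replicates, which choosing them on these same arrays favours. The share of calls that were higher was 64.6%, and 90.5% (268 higher and 28 lower) when the arrays were scaled to their medians in place of quantile normalization. Of the 181, 21 passed the detection limit on both arrays of 1 line only (9.38% of all genes and unnamed probes did), and each was higher in that line, so that its entry into the test depended on the difference (18 in shlinc00598#2 and 3 in shlinc00598#3). The differences were 1.36-fold to 2.38-fold, with a median absolute log2 difference of 0.53.

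These calls rest on the block and on a spread borrowed from all genes, since 1 residual degree of freedom was left for each gene. Without the replicate block limma called 0 (152 at an unadjusted p under 0.05), with all 6 arrays in 1 blocked fit it called 0 (1480 unadjusted, smallest adjusted p = 0.0761), and after background correction with neqc it called 0 (1931 unadjusted). An exact permutation test of 2 arrays against 2 cannot go below p = 0.333, so no single gene was tested that way.

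A descriptive criterion, a 1.4-fold or larger difference of the same sign in each replicate, was met by 50 genes and unnamed probes higher (0.301%) and 20 lower (0.12%) in shlinc00598#2, of which 42 and 17 were named, and all 70 were among the 181. In a single replicate 200 and 167 were at least 1.4-fold higher, and 114 and 330 at least 1.4-fold lower, in replicates 1 and 2. The number 1.4-fold apart in opposite directions in the 2 replicates was 0. The arrays of the lines did not overlap for 128 of the 181, against 22% of all genes and unnamed probes. The calls, the fold criterion and the overlap rest on the same arrays, so none is separate support for another.

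**Figure D1:**
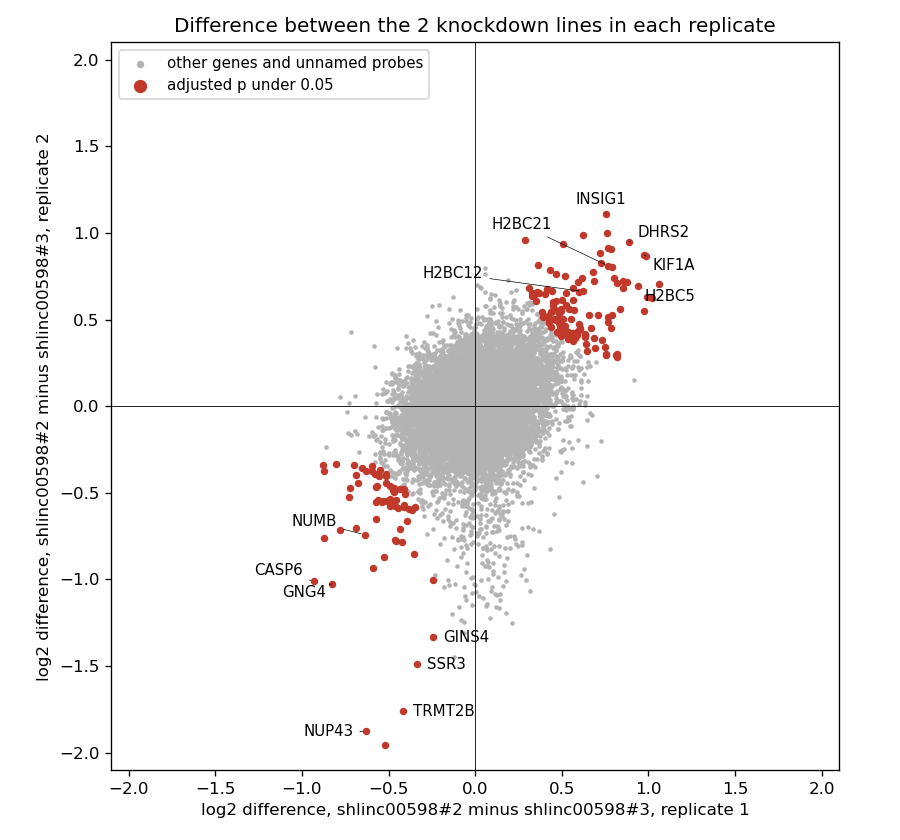
Log2 difference between shlinc00598#2 and shlinc00598#3 in replicate 1 (horizontal axis) and replicate 2 (vertical axis) for 16635 genes and unnamed probes, each a point. The 181 points in red passed an adjusted p of 0.05, and all lie at the upper right or lower left; the grey points that run down below zero are high on shlinc00598#3 replicate 2.

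Replication-dependent histone genes had the widest median difference of the gene lists examined, and most of those tested were higher in shlinc00598#2 than in shlinc00598#3. Histones H2A, H2B, H3 and H4 form the protein core around which DNA is wound, and H1 binds the linker between cores. Their replication-dependent genes lie in clusters on chromosomes 6 and 1, are transcribed mainly in S phase, and give messages that mostly end in a stem-loop in place of a poly(A) tail. Of 68 listed genes 25 were detected and tested and 43 were not. Among the 25, 18 were higher and 2 lower in shlinc00598#2 in both replicates (30.6% and 28.4% of all genes and unnamed probes). Of the 25, 7 were called higher and 0 lower (0.703% and 0.385% of all), and 6 were at least 1.4-fold higher in both replicates (0.301% of all). The median log2 difference was 0.23 (0.26 in replicate 1 and 0.26 in replicate 2), against 0.0008 over all genes and unnamed probes. In RNA of a whole culture, more cells that express a gene and more message in each cell cannot be told apart. Histone messages that end in a stem-loop and those with a poly(A) tail were not measured apart either. Which of them the probes read was not tested.

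The called genes belong to 4 of the 5 histone classes, with 3 of 6 tested H2B genes, 2 of 6 H2A genes, 1 of 4 H3 genes and 1 of 7 H4 genes, and 0 of 2 H1 genes. The promoters of the 3 called H2B genes and of H2AC25, the called H2A gene with no near-identical copy named here, are shown, since H2B promoters are known for an octamer bound by OCT1 and histone promoters in general for CCAAT boxes and a TATA box. The sequences are RefSeq windows of 300 bases (250 before and 50 after the start) on GRCh38.p14, with capitals at matches, on either strand, to ATTTGCAT, CCAAT or TATAAA, which can touch or overlap. They lie at chr1:149886633-149886932 (minus strand) for H2BC21, chr6:27146809-27147108 (minus strand) for H2BC12, chr6:26157871-26158170 (plus strand) for H2BC5 and chr1:228457824-228458123 (minus strand) for H2AC25.
H2BC21: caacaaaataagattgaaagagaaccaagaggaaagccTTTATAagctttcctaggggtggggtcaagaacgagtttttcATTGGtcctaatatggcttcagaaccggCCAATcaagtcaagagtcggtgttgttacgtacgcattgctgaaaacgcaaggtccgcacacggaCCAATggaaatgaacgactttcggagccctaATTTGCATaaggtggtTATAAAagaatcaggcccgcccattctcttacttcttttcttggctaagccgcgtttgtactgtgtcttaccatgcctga
H2BC12: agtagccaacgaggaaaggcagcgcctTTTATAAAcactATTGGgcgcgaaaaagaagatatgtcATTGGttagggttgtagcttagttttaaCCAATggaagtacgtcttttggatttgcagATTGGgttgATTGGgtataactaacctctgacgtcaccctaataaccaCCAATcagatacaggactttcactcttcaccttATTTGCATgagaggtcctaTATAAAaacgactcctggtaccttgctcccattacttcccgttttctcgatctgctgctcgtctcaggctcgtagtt
H2BC5: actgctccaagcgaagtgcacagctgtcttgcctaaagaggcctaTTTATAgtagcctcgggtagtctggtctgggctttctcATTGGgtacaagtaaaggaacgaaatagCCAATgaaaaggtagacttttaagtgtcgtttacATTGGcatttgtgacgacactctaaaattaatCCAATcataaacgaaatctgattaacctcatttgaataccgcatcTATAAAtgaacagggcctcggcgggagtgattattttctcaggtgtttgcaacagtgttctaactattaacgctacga
H2AC25: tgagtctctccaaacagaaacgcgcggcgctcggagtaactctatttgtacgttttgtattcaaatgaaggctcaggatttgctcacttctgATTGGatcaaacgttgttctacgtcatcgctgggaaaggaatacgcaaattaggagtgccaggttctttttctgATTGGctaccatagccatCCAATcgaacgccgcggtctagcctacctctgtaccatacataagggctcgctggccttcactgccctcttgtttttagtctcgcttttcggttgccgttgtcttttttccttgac

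The octamer ATTTGCAT stood in the windows of H2BC21 and H2BC12, in 2 of the 7 called histone genes and in 6 of the 17 uncalled ones with a window, against 1.8% of 27305 promoters. CCAAT was found in 6 of the 7 called and 12 of the 17 uncalled histone genes, against 35.7% of promoters. TATAAA was found in 5 of the 7 called and 12 of the 17 uncalled, against 12% of promoters. The letters thus occurred in called and uncalled histone genes alike, and 24 of the 25 tested genes had a window. A match is only a run of letters and no measured binding site.

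H2BC21 had log2 intensities of 9.04 and 8.67 in shlinc00598#2 and 8.27 and 7.86 in shlinc00598#3, with 8.35 and 7.91 in shCTL. Both shlinc00598#2 arrays were above all other arrays, and shlinc00598#3 minus the control was -0.08 and -0.04 in the 2 replicates. The difference between the lines was 0.79 (SE 0.10), or 1.73-fold (limma adjusted p = 0.00125). H2BC12, the most intense of the called histone probes, had 12.74 and 12.52 in shlinc00598#2, 12.12 and 11.86 in shlinc00598#3 and 12.05 and 11.97 in shCTL. Again the arrays of shlinc00598#2 stood above all others, by 0.64 (SE 0.10, 1.56-fold, limma adjusted p = 0.00588) over shlinc00598#3, and another probe of H2BC12 gave 0.67 and 0.69 in the 2 replicates.

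H2BC5 had the largest difference of the group, 0.82 (SE 0.11, 1.76-fold, limma adjusted p = 0.00125). Its log2 intensities were 9.29 and 8.12 in shlinc00598#2, 8.35 and 7.42 in shlinc00598#3 and 8.12 and 7.79 in shCTL. Here the lines overlap across replicates, because replicate 2 was lower than replicate 1 in each line, and the order of the lines is seen only within a replicate. A dimmer probe of H2BC5 gave smaller differences, 0.34 and 0.39.

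H2AC25, which lies on chromosome 1 apart from the main clusters, had 10.11 and 9.88 in shlinc00598#2, 9.34 and 9.36 in shlinc00598#3 and 9.71 and 9.94 in shCTL. In this gene it was shlinc00598#3 that lay below the control in both replicates. The lines differed by 0.64 (SE 0.11, limma adjusted p = 0.00869) and their arrays did not overlap. H3C10 was dim, at 7.58 and 7.53 in shlinc00598#2, 7.09 and 7.02 in shlinc00598#3 and 6.90 and 7.22 in shCTL. Both shlinc00598#2 arrays exceeded all others, by 0.50 (SE 0.10, limma adjusted p = 0.0289) over shlinc00598#3.

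H4C14 and H2AC18 belong to a duplicated stretch of chromosome 1 and have near-identical copies, H4C15 and H2AC19, so which copy gave the signal is uncertain. H4C14 had 9.63 and 8.70 in shlinc00598#2, 8.86 and 8.21 in shlinc00598#3 and 8.63 and 8.21 in shCTL (difference 0.63, SE 0.11, limma adjusted p = 0.0108), and the lines overlap across replicates. H2AC18 had 9.45 and 9.04 in shlinc00598#2, 9.01 and 8.25 in shlinc00598#3 and 9.01 and 8.28 in shCTL (difference 0.61, SE 0.11, limma adjusted p = 0.0159). Its shlinc00598#2 arrays were the highest, by a narrow margin over replicate 1 of shlinc00598#3, and a dimmer probe of H2AC18 gave -0.03 and 0.22. The probes named for the copies differed less, with 0.38 for H4C15 (adjusted p = 0.112) and 0.35 for H2AC19 (adjusted p = 0.131), neither past the threshold.

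**Figure D2:**
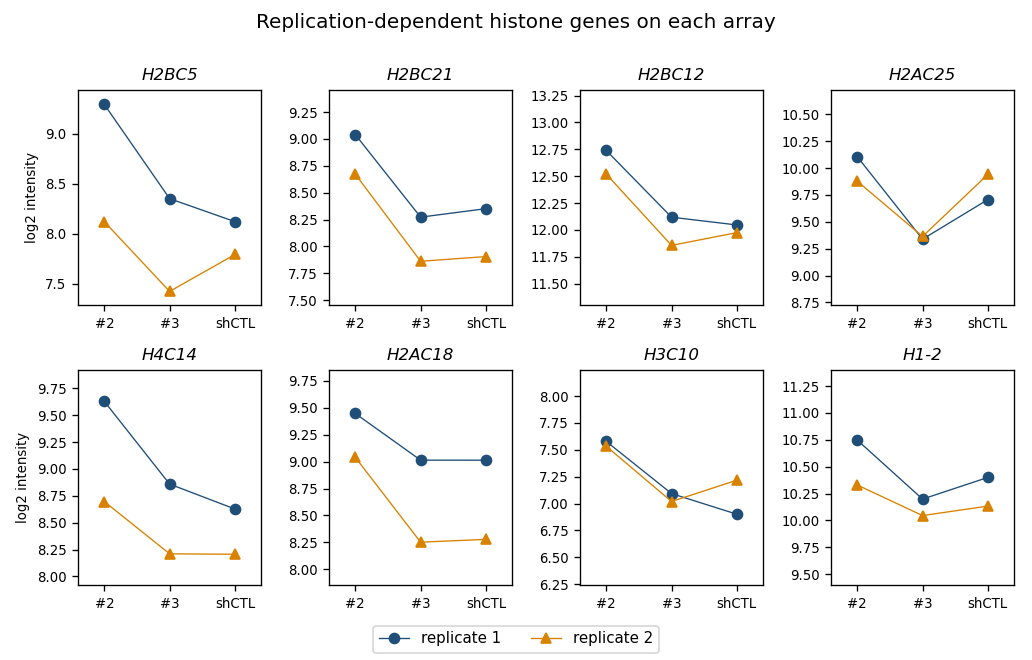
Log2 intensity of the 7 called replication-dependent histone genes and of H1-2 on each array, for shlinc00598#2, shlinc00598#3 and shCTL, with replicates 1 and 2 as separate symbols joined by lines. In every panel the shlinc00598#2 value is above the shlinc00598#3 value of its replicate; vertical axes do not start at 0 and differ between panels.

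Several uncalled histone genes had differences of similar sign without passing the threshold. The linker histone gene H1-2 had 10.75 and 10.33 in shlinc00598#2 against 10.20 and 10.05 in shlinc00598#3 (difference 0.42, adjusted p = 0.082), H2AC11 a difference of 0.42 (adjusted p = 0.0803) and H4C8 one of 0.35 (adjusted p = 0.13). The lowest of the 25 was H2BC17, at -0.30 (adjusted p = 0.196), which was detected on the shlinc00598#3 arrays only. The most intense histone probe, H4C3, had 15.33 and 15.03 in shlinc00598#2 and 15.30 and 14.98 in shlinc00598#3, a difference of 0.04, and it lies near the top of the array's range. Against the control arrays, 17 of the 25 were above and 2 below in shlinc00598#2 in both replicates (29.8% and 27.7% of all genes and unnamed probes), with median differences of 0.37 and 0.14. In shlinc00598#3, 6 were above and 5 below (28.7% and 27.7% of all), with medians of 0.07 and -0.03. The 10 tested replication-independent histone genes, which are expressed outside S phase and carry poly(A) tails, had a median line difference of 0.02 with 0 called. The 16 tested genes of histone transcription and message processing, such as those that bind the stem-loop or cut the message, had a median of -0.0006 with 0 called.

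KIF1A had, with DHRS2 and INSIG1, the largest differences among named genes higher in shlinc00598#2. It encodes a kinesin motor that carries synaptic vesicle precursors along axons. Its log2 intensities (chromosome 2) were 11.50 and 10.15 in shlinc00598#2, 10.53 and 9.28 in shlinc00598#3 and 11.65 and 10.79 in shCTL. Replicate 2 was lower in every line, so the lines overlap across replicates, and within each replicate shlinc00598#3 was the lowest and shCTL the highest. The difference was 0.97 in replicate 1 and 0.87 in replicate 2, on average 0.92 (SE 0.10), or 1.90-fold (limma adjusted p = 0.000668, and 0.0889 with all 6 arrays in the fit). It was the only one of 36 tested kinesin genes to be called, and the median of these was 0.02. Among 34 neuronal genes that HEK293 cells can express, KIF1A and NPTX1 were called higher and STMN3 lower, with a median of 0.002. NPTX1, a secreted neuronal pentraxin, had 10.34 and 10.83 in shlinc00598#2, 9.84 and 10.28 in shlinc00598#3 and 10.59 and 11.20 in shCTL. Again shlinc00598#3 was lowest in each replicate, and the difference was 0.52 (SE 0.10, limma adjusted p = 0.0245), though a dim probe of NPTX1 gave 0.15 and -0.09.

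HES5, INSM1, CNTNAP2 and ADAMTS1 were also among the genes higher in shlinc00598#2. HES5, a repressor of the bHLH family that Notch signalling induces in neural progenitors, had 9.95 and 9.72 in shlinc00598#2, 9.19 and 8.72 in shlinc00598#3 and 10.32 and 9.44 in shCTL (difference 0.88, SE 0.11, 1.84-fold, limma adjusted p = 0.00106). The lines did not overlap, and shlinc00598#3 was below every other array. INSM1, a zinc-finger factor of neuroendocrine cells, had 8.70 and 8.64 in shlinc00598#2, 7.91 and 7.84 in shlinc00598#3 and 8.73 and 8.33 in shCTL (difference 0.80, SE 0.10, limma adjusted p = 0.00125). CNTNAP2, an adhesion protein of the neurexin family, had 9.27 and 9.04 in shlinc00598#2, 8.49 and 8.13 in shlinc00598#3 and 9.02 and 8.89 in shCTL (difference 0.85, SE 0.10, limma adjusted p = 0.00106). In both genes the shlinc00598#3 arrays were the lowest of all. ADAMTS1, a secreted protease that cleaves proteoglycans, had 10.22 and 10.13 in shlinc00598#2, 9.45 and 9.21 in shlinc00598#3 and 10.76 and 9.87 in shCTL (difference 0.84, SE 0.10, limma adjusted p = 0.00112), and again the shlinc00598#3 arrays were the lowest.

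INSIG1, DHRS2 and CA2 were higher in shlinc00598#2 and differed in where the control lay. INSIG1, which holds the sterol sensor SCAP in the endoplasmic reticulum, had 10.20 and 12.30 in shlinc00598#2, 9.44 and 11.19 in shlinc00598#3 and 10.97 and 11.90 in shCTL. Replicate 2 was the higher in every line, so the lines overlap across replicates, and shlinc00598#3 was the lowest in each replicate. The difference was 0.93 (SE 0.11, 1.91-fold, limma adjusted p = 0.00106). It was the only called gene of 19 in cholesterol synthesis and its control, whose median was -0.07. DHRS2, a short-chain dehydrogenase, had 11.21 and 8.16 in shlinc00598#2, 10.32 and 7.21 in shlinc00598#3 and 9.90 and 7.72 in shCTL. Its replicates lay far apart in every line, but within a replicate shlinc00598#2 was the highest and the difference was steady (0.89 and 0.95, on average 0.92, SE 0.10, limma adjusted p = 0.000668). Another DHRS2 probe gave 1.11 and 0.98. CA2, a cytosolic carbonic anhydrase, had 13.34 and 13.97 in shlinc00598#2, 12.49 and 13.24 in shlinc00598#3 and 13.28 and 13.59 in shCTL (difference 0.79, SE 0.10, limma adjusted p = 0.00125). The control lay between the lines in both replicates, and another CA2 probe gave 0.76 and 0.67.

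The remaining named genes that stood out in this direction by the difference in the weaker replicate were BAIAP2L2 (0.74), MAGEC2 (0.72), MYOM2 (0.72), SUMF1 (0.71) and PPP1R14C (0.68), with limma adjusted p-values between 0.00125 and 0.00267. BAIAP2L2 and MAGEC2 were detected on 3 of the 4 knockdown arrays, without shlinc00598#3 replicate 2. Both thus entered the test only through shlinc00598#2, the line in which they were higher, and their p-values are to be read with that limit. MYOM2 encodes a protein of the M band of muscle, BAIAP2L2 a membrane-bending protein, MAGEC2 a cancer-testis antigen, SUMF1 the enzyme that activates sulfatases and PPP1R14C an inhibitor of protein phosphatase 1. Of the 15 named genes with the largest difference in the weaker of their 2 replicates in this direction, 12 were below the control in shlinc00598#3 in both replicates and 0 above. In shlinc00598#2, 8 were above and 1 below it, and over all genes and unnamed probes each of these shares lay between 27.7% and 29.8%. The 15 were chosen for a wide gap between the lines, which by itself favours such counts.

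**Figure D3:**
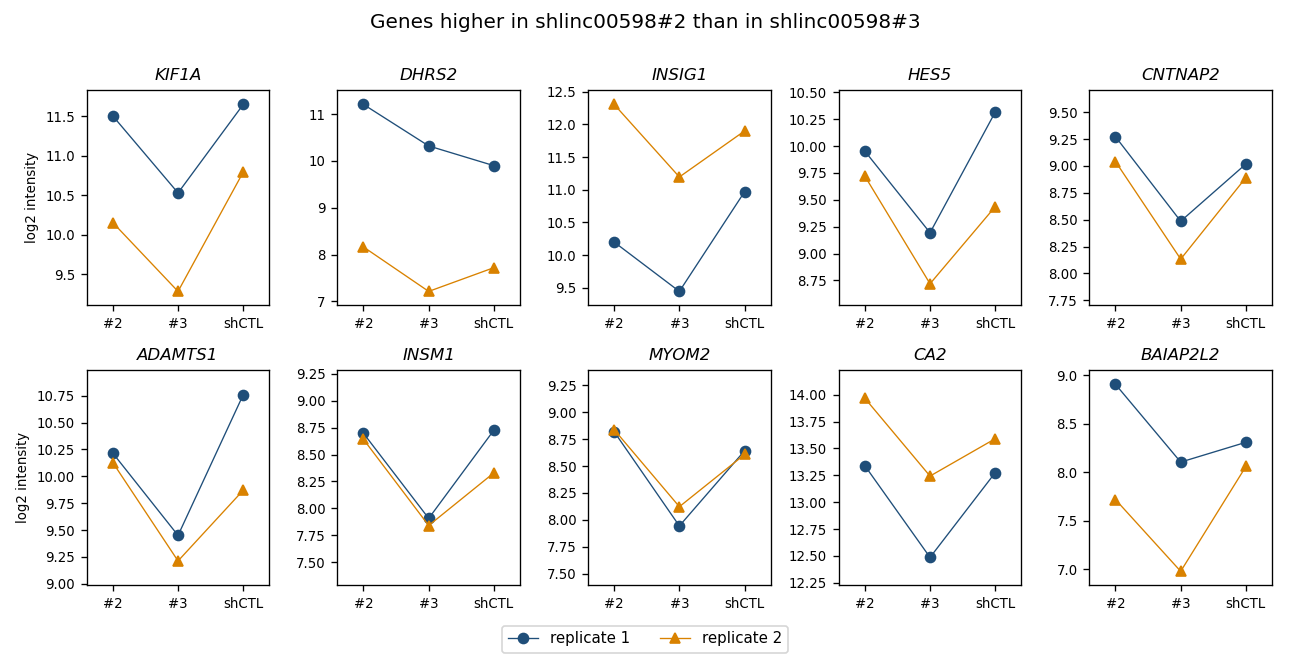
Log2 intensity of 10 genes higher in shlinc00598#2 on each array, for shlinc00598#2, shlinc00598#3 and shCTL, with replicates 1 and 2 as separate symbols joined by lines. KIF1A has 11.50 and 10.15 in shlinc00598#2 and 10.53 and 9.28 in shlinc00598#3, and in 9 panels the shlinc00598#3 value is the lowest of its replicate in both replicates; vertical axes do not start at 0 and differ between panels.

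Among the genes lower in shlinc00598#2, CASP6 had the largest difference in its weaker replicate (-0.93). It encodes an executioner caspase, a protease of apoptosis. Its log2 intensities (chromosome 4) were 7.64 and 8.04 in shlinc00598#2, 8.57 and 9.05 in shlinc00598#3 and 8.57 and 8.94 in shCTL. Both shlinc00598#2 arrays were the lowest, and shlinc00598#3 minus the control was 0.01 and 0.12. The difference was -0.97 (SE 0.10), 1.96-fold higher in shlinc00598#3 (limma adjusted p = 0.000668, and 0.0761 with all 6 arrays), and its other probes gave -0.48 and -0.41, and -0.20 and -0.26. CASP6 was the only called gene of 21 in the BCL2 and caspase families.

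SIDT2, ARHGEF3 and NUMB had the same arrangement, with shlinc00598#2 below the control and shlinc00598#3 close to it. SIDT2, a lysosomal membrane protein related to transporters of double-stranded RNA in worms, had 9.95 and 9.84 in shlinc00598#2, 10.82 and 10.60 in shlinc00598#3 and 10.78 and 10.67 in shCTL (difference -0.82, SE 0.10, limma adjusted p = 0.00125). ARHGEF3, an exchange factor for RhoA, had 9.05 and 9.21 in shlinc00598#2, 9.83 and 9.93 in shlinc00598#3 and 9.88 and 10.00 in shCTL (difference -0.75, SE 0.10, limma adjusted p = 0.00163). For both genes the lines did not overlap. NUMB, an endocytic adaptor that restrains Notch, had 10.94 and 10.82 in shlinc00598#2, 11.57 and 11.56 in shlinc00598#3 and 11.51 and 11.42 in shCTL (difference -0.69, SE 0.10, limma adjusted p = 0.00341). Another NUMB probe gave -0.45 and -0.68.

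GNG4, a gamma subunit of heterotrimeric G proteins, had 10.16 and 8.86 in shlinc00598#2, 10.99 and 9.88 in shlinc00598#3 and 10.64 and 9.81 in shCTL (difference -0.93, SE 0.11, limma adjusted p = 0.000673). The control lay between the lines in both replicates, and the lines overlap across replicates. WWP1 (-0.61), a ubiquitin ligase, MORF4L1 (-0.63), a chromatin protein of histone acetyltransferase complexes, FNBP1 (-0.56), a membrane-curving protein, STK38 (-0.55), a kinase of the NDR family, STMN3 (-0.55), a stathmin that binds tubulin, and JOSD1 (-0.54), a deubiquitinase, were called with limma adjusted p-values of 0.00869 to 0.0211. A dimmer probe of MORF4L1 gave 0.006 and -0.08 and so did not show the difference.

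A pair of small Cajal body RNAs, which guide the modification of spliceosomal RNAs, were lower in shlinc00598#2. SCARNA8 had 8.26 and 8.79 in shlinc00598#2, 8.85 and 9.72 in shlinc00598#3 and 8.61 and 9.40 in shCTL (difference -0.76, SE 0.11, limma adjusted p = 0.00267). SCARNA11 had 7.31 and 7.74 in shlinc00598#2, 7.82 and 8.28 in shlinc00598#3 and 7.45 and 8.45 in shCTL (difference -0.53, SE 0.10, limma adjusted p = 0.0231). The lines did not overlap for either RNA, the control lay between them in both replicates for SCARNA8, and it was the highest array of replicate 2 for SCARNA11. Of the 15 named genes with the largest difference in the weaker of their 2 replicates in this direction, 13 were below the control in shlinc00598#2 in both replicates and 2 above, whereas in shlinc00598#3 9 were above and 1 below (over all, again 27.7% to 29.8% each). Here too the choice by the gap between the lines favours such counts.

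TRMT2B belongs to a set of 6 called genes and unnamed probes whose line difference was at least 0.7 larger in replicate 2 than in replicate 1, and all 6 were lower in shlinc00598#2. It encodes a mitochondrial RNA methyltransferase that makes 5-methyluridine. Its log2 intensities (chromosome X) were 8.42 and 7.98 in shlinc00598#2, 8.83 and 9.73 in shlinc00598#3 and 7.40 and 7.84 in shCTL. The lines did not overlap, the control was the lowest in each replicate, and shlinc00598#3 replicate 2 was the highest array. The difference was -0.41 in replicate 1 and -1.76 in replicate 2, on average -1.09 (SE 0.20, 2.12-fold higher in shlinc00598#3, limma adjusted p = 0.0159), and TRMT2B did not meet the 1.4-fold criterion in replicate 1. Of 31 tested tRNA methyltransferases and partners it was the only one called, and the median of these was 0.08.

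The other named genes of this set were NUP43, SSR3 and GINS4. NUP43, a subunit of the nuclear pore, had 8.68 and 8.21 in shlinc00598#2, 9.31 and 10.09 in shlinc00598#3 and 8.11 and 7.98 in shCTL, the largest mean difference of all called genes (-1.25, SE 0.19, limma adjusted p = 0.00344, with -0.63 and -1.88 in the replicates). SSR3, a subunit of the translocon-associated complex, had 8.92 and 7.96 in shlinc00598#2, 9.26 and 9.45 in shlinc00598#3 and 8.36 and 7.93 in shCTL (-0.91, SE 0.18, limma adjusted p = 0.0238). GINS4, a subunit of the replicative helicase, had 8.12 and 8.51 in shlinc00598#2, 8.36 and 9.84 in shlinc00598#3 and 7.90 and 8.24 in shCTL (-0.79, SE 0.17, limma adjusted p = 0.037). In all of these shlinc00598#3 replicate 2 was the highest array, as it was for 132 of the 145 genes and unnamed probes at least 0.7 lower in shlinc00598#2 in that replicate. Choice by a difference in that replicate favours such a count, and the part of this array in the result was not tested. LOC100190986, an uncharacterised locus, kept the order in both replicates, with 9.02 and 9.07 in shlinc00598#2, 9.55 and 9.94 in shlinc00598#3 and 8.88 and 8.95 in shCTL (-0.70, SE 0.11, limma adjusted p = 0.00586), and both shlinc00598#3 arrays were above all others.

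**Figure D4:**
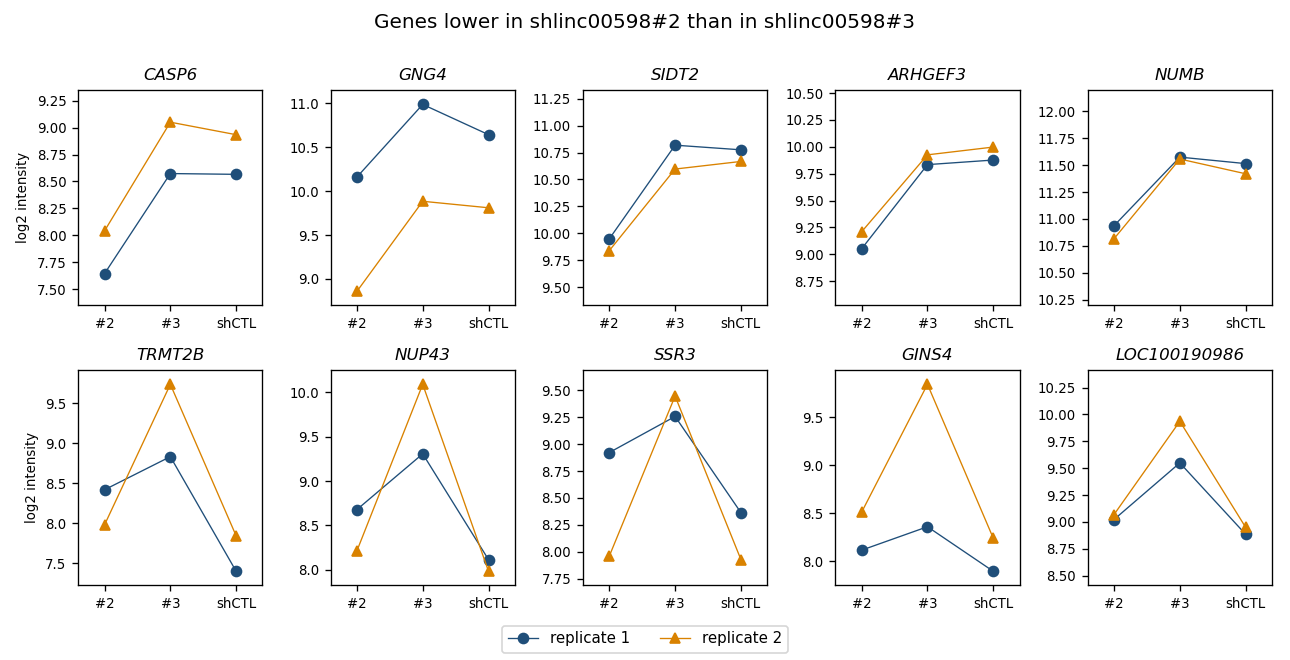
Log2 intensity of 10 genes lower in shlinc00598#2 on each array, for shlinc00598#2, shlinc00598#3 and shCTL, with replicates 1 and 2 as separate symbols joined by lines. TRMT2B, NUP43, SSR3 and GINS4 have their highest value on shlinc00598#3 replicate 2 (9.73, 10.09, 9.45 and 9.84), whereas CASP6, SIDT2, ARHGEF3 and NUMB have their lowest values on the shlinc00598#2 arrays; vertical axes do not start at 0 and differ between panels.

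Of 12 genes that the study names, 1 was called higher and 1 lower in shlinc00598#2, with differences of -0.51 to 0.53 and a median of -0.04. CCND2, cyclin D2, had 11.45 and 8.95 in shlinc00598#2, 11.87 and 9.31 in shlinc00598#3 and 12.37 and 10.65 in shCTL, a line difference of -0.39 (SE 0.10, limma adjusted p = 0.0901). Its replicates were much further apart than its lines, and within each replicate both knockdown lines were below the control. CDKN1A, which encodes the inhibitor p21, had 11.94 and 9.77 in shlinc00598#2, 12.42 and 10.25 in shlinc00598#3 and 12.39 and 10.54 in shCTL, and was called lower in shlinc00598#2 (-0.48, SE 0.10, limma adjusted p = 0.0357). PIM1, a growth-promoting kinase, had 9.64 and 8.97 in shlinc00598#2, 9.03 and 8.52 in shlinc00598#3 and 10.15 and 9.01 in shCTL and was called higher (0.53, SE 0.10, limma adjusted p = 0.026). For both genes the lines overlap across replicates. Of the 12 study genes, the other 10 did not pass, and DDIT4, a stress-induced inhibitor of mTOR signalling, had the largest difference of these (-0.51, adjusted p = 0.0521). The genes on either side of linc00598 stood at -0.06 (FOXO1) and -0.05 (COG6), and turned to 0.06 and 0.09 when the arrays were scaled to their medians, which put the median of all genes at 0.11. The study chose several of these genes on these samples, so the list is not independent of the data.

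Calls in other gene groups, and in the lists above, stand beside the 1.09% of all genes and unnamed probes that were called. In lists this short, a single call or none says little about the list as a whole. CDK6, a kinase that partners D-type cyclins, was the only called gene of the 19 tested on the list of cyclins and cyclin-dependent kinases. It had 11.15 and 11.14 in shlinc00598#2 and 10.66 and 10.60 in shlinc00598#3 (0.51, SE 0.10, limma adjusted p = 0.0264). The lines did not overlap, and the control lay between them in both replicates. The cyclin gene CCNC, which the list does not hold, was also called higher in shlinc00598#2 (0.51, SE 0.10, limma adjusted p = 0.0268). CDKN1A was the only called gene of 10 tested CDK inhibitors and pocket proteins, of which 6 were lower and 2 higher in shlinc00598#2 in both replicates (median -0.11, and -0.02 with the arrays scaled to their medians). CDKN1A and PHLDA3 (-0.46, limma adjusted p = 0.0457) were called among 20 tested targets of p53, the tumour suppressor that large T antigen binds (median -0.09). IFITM3, an interferon-induced membrane protein whose gene has close copies, was the only called gene of the 26 tested on the list of interferon-stimulated genes (-0.48, limma adjusted p = 0.0365, list median 0.02). The list does not hold every gene of this kind. Among the 46 genes of DNA replication GINS4 was the only one called, and among 48 genes of mitosis 0 were, with medians of -0.008 and -0.01. The metallothionein MT1F (0.53, limma adjusted p = 0.0437, 1 of 6 tested) and the actin-capping subunit CAPZA1 (0.63, limma adjusted p = 0.0069, 1 of 37 actin genes) were called higher in shlinc00598#2. CAPZA1 was detected on both shlinc00598#2 arrays and on 0 of 2 shlinc00598#3 arrays, so it entered the test only through the line in which it was higher.

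0 genes were called in the lists of the RNA interference machinery (19 tested, median 0.05), ribosomal proteins (67, 0.007), ribosome biogenesis (40, 0.06), ATF4 targets (39, 0.02), hypoxia targets (27, -0.05), immediate early genes (27, 0.06), YAP and TEAD targets (20, -0.10), cytosolic heat shock proteins (15, 0.09), endoplasmic reticulum chaperones (19, 0.07), NRF2 targets (11, -0.01), anchor synthesis of the GPI type (25, 0.01) and neighbours of linc00598 in band 13q14 (19, 0.07). With 1.09% of all genes and unnamed probes called, 0 calls in lists of this size say little about the lists. In some of these lists the median changed sign between replicates, as for ATF4 targets (0.14 in replicate 1 and -0.09 in replicate 2). Ribosome biogenesis genes were higher in shlinc00598#2 in both replicates for 24 of 40 and lower for 3 (30.6% and 28.4% of all genes and unnamed probes). Their differences were small, at -0.27 to 0.24. Their median of 0.06 was below the 0.11 at which median scaling put the median of all genes, so these counts depend on the normalization.

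**Figure D5:**
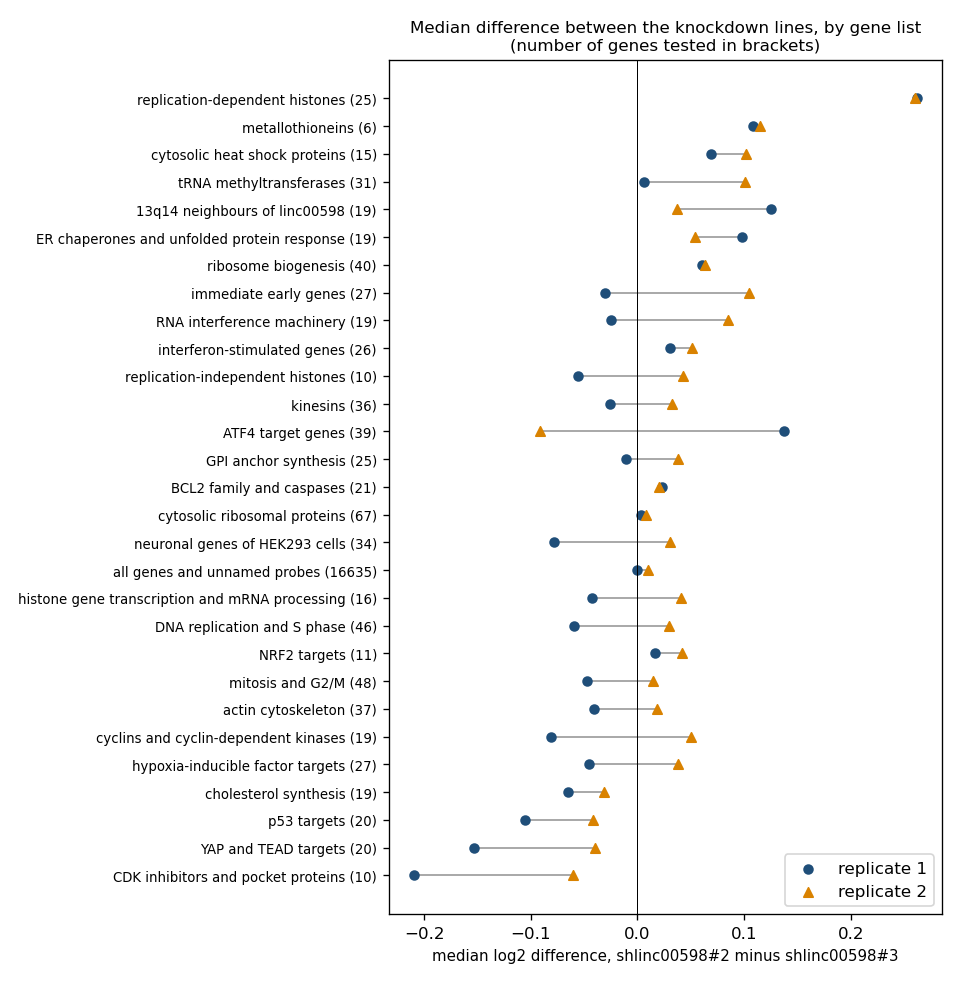
Median log2 difference, shlinc00598#2 minus shlinc00598#3, over the tested genes of each list drawn (cell type markers, the genes the study names and the histone classes are left out), in replicate 1 (circles) and replicate 2 (triangles), with the number of genes tested in brackets. The replication-dependent histones stand at 0.26 in both replicates, and the other lists drawn lie between -0.21 and 0.14.

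Set beside the control arrays, which entered the normalization but not the test, the called genes divided between the lines. For 128 of the 181 the control was nearer to the same line in both replicates, nearer to shlinc00598#2 for 67 and nearer to shlinc00598#3 for 61, and for 53 the nearer line changed (37%, 33.7% and 29.3% of the called, against 23%, 28.9% and 48.1% of all). The wider gap between the lines of called genes bears on these shares directly. The 117 higher in shlinc00598#2 had the control nearer to shlinc00598#2 in 55, nearer to shlinc00598#3 in 20 and mixed in 42, and the 64 lower had it nearer to shlinc00598#2 in 12, nearer to shlinc00598#3 in 41 and mixed in 11. In 96 of the 128 (75%, against 50.3% of all genes placed in the same way) the line farther from the control was the one below it. KIF1A, HES5 and INSM1 are examples in shlinc00598#3, and CASP6, SIDT2 and NUMB in shlinc00598#2. H2BC21 and H2BC12 are among the 32 with the farther line above the control.

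A second probe of the same gene was a further reading of the same RNA, not a replicate. Of the called genes 35 had at least 1 other kept probe, and of these 49 probes 32 (65.3%) differed in the called direction in both replicates, against 40.2% of the other probes of uncalled genes. DHRS2, CA2, H2BC12, H2BC5, NUMB and CASP6 were among the genes whose probes shared the direction, whereas for MORF4L1, NPTX1 and H2AC18 they did not.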

How the data were processed

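Total RNA of 4 knockdown arrays (shlinc00598#2 and shlinc00598#3) and 2 shCTL arrays was read on Illumina HumanHT-12 v4 BeadChips. Per the labels, the authors used GenomeStudio 2011.1, and their deposited non-normalized table gives for every probe a linear average intensity and a detection p-value. The deposited processed table holds log2 intensities that matched quantile normalization over the 6 arrays to within 0.00417. Here the intensities were quantile-normalized over the 6 arrays with limma 3.58.1 (R 4.3.3) and log2-transformed. Background was not subtracted, which compresses differences of dim probes. The number of arrays limits the precision.

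Probes with a detection p-value under 0.05 on both arrays of at least 1 knockdown line were kept. The platform annotation gives a single gene symbol for 30113 probes, more than 1 for 8 and none for 17200. Symbols were updated through Entrez identifiers to RefSeq (GRCh38.p14), each gene took the brightest of its kept probes, and probes lacking a single symbol were tested one by one. limma was fitted to the 4 knockdown arrays with line and replicate number as terms (prior degrees of freedom 14.6), and p-values were adjusted by the Benjamini-Hochberg method over all 16635 genes and unnamed probes, with a threshold of 0.05. The titles give the replicate numbers, and deviations from the line means correlated across genes at 0.829 between the knockdown lines and at 0.744 and 0.763 between shlinc00598#2 or shlinc00598#3 and shCTL. The fit was tested on simulated data.

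Genes were named by rule: the tested replication-dependent histones, KIF1A and TRMT2B, up to 10 named genes in each direction with the smallest p among those called, up to 15 in each direction with the largest difference in the weaker replicate among those at least 1.4-fold apart in both, called members of gene lists (uncalled members are given by counts and medians) and, of the genes the study names, those called, CCND2, DDIT4, FOXO1 and COG6. SSR3 and GINS4 were also named for their unequal replicates after their values were seen. CCNC was named after its values were seen, as a called cyclin gene outside the list. The members, lists and rules were chosen with earlier results of these data known. Alternatives were quantile normalization of the 4 arrays, median scaling, neqc (offset 16), the processed values, all probes without a filter, a stricter limit (detection p under 0.01 on every knockdown array), the mean of a gene's probes, no replicate block, all 6 arrays in the fit, the methods' t-test, 1.4-fold in the mean difference, 1.5-fold in both replicates, and each array or replicate left out. 2 more were chosen after seeing the data: the processed values set beside the array each column holds, and neqc with the stricter detection limit. Promoter windows came from RefSeq (GRCh38.p14).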

Additional observations from a re-analysis of the deposited data

Results flagged for a closer look

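In 15 of the called genes named here by rule the lines lay on opposite sides of the control in both replicates. In each of these 1 line was above and the other below every time. This opposition was seen in the values and was not tested, and 74 of the 181 called genes and unnamed probes had it (40.9%, against 8.65% of all), a share that the wider gap between the lines of called genes bears on directly. With shlinc00598#2 above and shlinc00598#3 below the control, the log2 differences between the lines were 0.85 for CNTNAP2, 0.8 for MYOM2, 0.79 for CA2, 0.79 for H2BC21, 0.77 for SUMF1, 0.63 for CAPZA1 (not detected in shlinc00598#3) and 0.51 for CDK6. With shlinc00598#2 below and shlinc00598#3 above the control, they were -0.97 for CASP6, -0.93 for GNG4, -0.76 for SCARNA8, -0.69 for NUMB, -0.63 for MORF4L1, -0.55 for STK38, -0.54 for JOSD1 and -0.48 for IFITM3. In several of these 1 line was close to the control, as in CASP6, where shlinc00598#3 minus the control was 0.01 and 0.12. With 2 arrays in each line, no single array was tested as an outlier in these genes.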

How the results depend on the processing

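The count of 181 was 186 with quantile normalization of the 4 arrays, 229 with no detection filter, 216 with probe means and 182 with the processed values of the array each column holds. It was 296 with median scaling, 78 with the stricter detection limit, and 0 with neqc, with neqc and the stricter limit, with the processed values by their own labels, without the replicate block, with all 6 arrays in the fit, and with any single array left out (no block). The methods' t-test gave 1 (ATP5F1B, whose normalized values tie within each line at a difference of 0.0057; 560 at an unadjusted p under 0.05). All 181 kept their direction under quantile normalization of the 4 arrays, median scaling, neqc and probe means, as did the 152 left by the stricter limit. The counts at least 1.4-fold higher and lower in both replicates, 50 and 20, became 109 and 9 with median scaling, 198 and 116 with neqc, 88 and 56 with neqc and the stricter limit, 4 and 10 with the processed values by their own labels, 93 and 87 in the mean difference, and 27 and 8 at 1.5-fold. With 1 replicate left out they were 167 to 200 higher and 115 to 330 lower, with an array of shlinc00598#2 left out 489 to 611 and 370 to 580, and with an array of shlinc00598#3 left out 500.0 to 666 and 503 to 549. A gene's brightest probe was chosen again from the arrays left, so these counts can differ slightly from those of a single replicate above (115 and 114 lower in replicate 1).

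Read by their own labels, 3 of the 4 processed knockdown columns hold another array, and the differences turned to ADAMTS1 -0.0535, CA2 -0.25, CDK6 -0.0265, CNTNAP2 -0.014, DHRS2 -0.19, H1-2 -0.23, H2AC11 -0.20, H2AC18 -0.20, H2AC19 -0.13, H2AC25 -0.0955, H2BC12 -0.25, H2BC21 -0.36, H2BC5 -0.29, H3C10 -0.14, H4C14 -0.39, H4C15 -0.29, H4C8 -0.14, HES5 -0.0209, INSIG1 -0.0253, INSM1 -0.15, MAGEC2 -0.0928, MT1F -0.0142, MYOM2 -0.20, PIM1 -0.0565, PPP1R14C -0.15 and SUMF1 -0.23 among genes with higher values in shlinc00598#2, and to ARHGEF3 0.43, CASP6 0.41, CCND2 0.88, CDKN1A 0.38, COG6 0.06, DDIT4 0.88, FNBP1 0.25, FOXO1 0.0222, GNG4 0.38, H2BC17 0.0347, IFITM3 0.14, JOSD1 0.25, MORF4L1 0.27, NUMB 0.25, PHLDA3 0.22, SCARNA11 0.34, SCARNA8 0.13, SIDT2 0.47, STK38 0.16, STMN3 0.37 and WWP1 0.28 among those with lower values. Median scaling turned COG6 to 0.094 and FOXO1 to 0.063. Leaving out 1 array removed the pairing, so the shift between replicates entered the difference. Some differences then crossed 0, with ranges of -1.64 to 0.87 for CCND2, -1.57 to 0.61 for CDKN1A, -1.37 to 0.36 for DDIT4, -0.60 to 2.44 for DHRS2, -0.20 to 0.0797 for FOXO1, -0.0451 to 0.81 for H4C15 and -0.12 to 1.99 for INSIG1 without an array of shlinc00598#2, and of -1.67 to 0.89 for CCND2, -1.56 to 0.60 for CDKN1A, -1.14 to 0.13 for DDIT4, -0.64 to 2.47 for DHRS2 and -0.15 to 0.0307 for FOXO1 without one of shlinc00598#3. The called differences of TRMT2B, NUP43, SSR3 and GINS4 rest on replicate 2, and without it they were -0.41, -0.63, -0.34 and -0.24. Probes near the detection limit have compressed differences.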
